A study of Homo sapiens with 16 samples.

Results

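The N-glycan mannosidases and MGAT enzymes are 10 of the 57820 genes in the RNA-seq count table: MAN1A1, MAN1A2, MAN1B1, MAN1C1, MAN2A1, MAN2A2, MGAT1, MGAT2, MGAT4A and MGAT5. They were chosen by gene symbol and selected on 1 measured value, the level of MAN1A1, which was already known to be higher in HSB-2 cells with USP7 shRNA. The USP7 shRNA against scrambled comparisons in HSB-2 therefore had a part in choosing the genes and are given here as a description, with no p-value for any of the 10. For MAN1A1 the same holds for the other comparisons that use those HSB-2 libraries. The libraries came from Jurkat and HSB-2, both established lines of T-lineage acute lymphoblastic leukemia (T-ALL) and TAL1-positive, in which the transcription factor TAL1 is aberrantly active. In each line 4 groups of 2 libraries were compared: wild-type cells that were not transduced, a scrambled control, and shRNA-4057 or shRNA-4058, hairpins directed at different exons of USP7. USP7 encodes a deubiquitylating enzyme, and the partial loss of USP7 was the question of the study. The hairpins were delivered by lentivirus and transduced cells were enriched by GFP sorting or puromycin, so the wild-type cells differ from all other groups in transduction and enrichment as well. Whether the 2 libraries of a group came from separate cultures is not stated, so the p-values measure the spread between these libraries, which may be technical.

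N-linked glycans are assembled on dolichol in the endoplasmic reticulum (ER), transferred to asparagines of nascent proteins and then trimmed. MAN1B1 removes mannose in the early secretory pathway, and the Golgi alpha-mannosidases I (MAN1A1, MAN1A2 and MAN1C1) remove further mannoses, which opens the glycan to MGAT1, the N-acetylglucosaminyltransferase that starts hybrid and complex glycans. The Golgi alpha-mannosidases II (MAN2A1 and MAN2A2) then trim again, MGAT2 completes the biantennary core, and MGAT4A and MGAT5 add the branches of multiantennary glycans, which on T cells bind galectins and tune the signaling threshold of the antigen receptor.

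All 10 genes are protein-coding and are given with the identifiers of the count table and GRCh37 coordinates. The ER enzyme MAN1B1 (ENSG00000177239.10) lies at chr9:139981309-140003641 on the plus strand. Of the Golgi alpha-mannosidases I, MAN1A1 (ENSG00000111885.5) lies at chr6:119498370-119670926 on the minus strand, MAN1A2 (ENSG00000198162.8) at chr1:117910071-118071494 on the plus strand and MAN1C1 (ENSG00000117643.10) at chr1:25943282-26112697 on the plus strand. Of the Golgi alpha-mannosidases II, MAN2A1 (ENSG00000112893.5) lies at chr5:109025628-109205326 and MAN2A2 (ENSG00000196547.10) at chr15:91445448-91465814, both on the plus strand. MGAT1 (ENSG00000131446.11) lies at chr5:180211780-180242652 and MGAT4A (ENSG00000071073.8) at chr2:99235569-99347595, both on the minus strand. MGAT2 (ENSG00000168282.4) lies at chr14:50087517-50090199 and MGAT5 (ENSG00000152127.4) at chr2:134877554-135212192, both on the plus strand.

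MAN1A1 and MAN1C1 spanned the widest ranges of the 10 genes over the 16 libraries, 249-fold and 13.9-fold, and their promoters are shown for that reason. The other 8 genes spanned between 1.24-fold (MAN1A2) and 3.05-fold (MGAT4A). The promoters are 300 bases of RefSeq sequence (GRCh38.p14) from 250 bases before to 50 bases after the gene start, written 5′ to 3′ on the strand of the gene. Capitals mark GC boxes (GGGCGG on either strand). MAN1A1 is at chr6:119349712-119350011 on the minus strand and MAN1C1 at chr1:25616541-25616840 on the plus strand.
MAN1A1 promoter: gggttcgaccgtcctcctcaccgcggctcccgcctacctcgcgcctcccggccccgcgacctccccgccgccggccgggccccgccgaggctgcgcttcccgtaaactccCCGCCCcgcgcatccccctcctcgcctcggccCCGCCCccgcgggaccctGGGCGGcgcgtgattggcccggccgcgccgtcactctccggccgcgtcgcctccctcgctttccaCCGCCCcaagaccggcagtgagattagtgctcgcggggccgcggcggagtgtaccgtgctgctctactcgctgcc
MAN1C1 promoter: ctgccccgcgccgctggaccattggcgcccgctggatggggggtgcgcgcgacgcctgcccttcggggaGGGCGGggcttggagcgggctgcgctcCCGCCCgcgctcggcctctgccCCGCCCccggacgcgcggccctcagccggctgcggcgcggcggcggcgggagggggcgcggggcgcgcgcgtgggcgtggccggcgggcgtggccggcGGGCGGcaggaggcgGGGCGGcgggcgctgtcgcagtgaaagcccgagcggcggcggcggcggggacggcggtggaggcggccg
E-proteins and TAL1, the factors of interest in this cell system, bind the E-box CANNTG, whose letters read the same on both strands as a pattern. Neither sequence holds a CANNTG, whereas 68.7% of the 35116 promoters of this length in the RefSeq table hold at least 1. The MAN1A1 sequence holds 4 GC boxes and has 77.3% GC, and the MAN1C1 sequence holds 5 and has 85.3% GC. At least 1 GC box is held by 45% of all promoters and at least 3 by 15.8%. Promoter sequences of 8 of the 10 genes were in the table, of which 4 hold a CANNTG (MAN1B1, MAN2A2, MGAT1 and MGAT2) and 7 hold a GC box (all except MGAT1). No E-box overlapped a GC box. These are matches of letters within the window and not measured binding sites.

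Total counts per library were between 76.6 M and 235.5 M (M, mega). An observed count of 0 allows up to 3 counts, which corresponds to between 0.0131 and 0.0444 CPM (counts per M counts of the TMM-scaled library, the unit of the levels given here). The targeted gene USP7 (ENSG00000187555.10, chr16:8985954-9069185, minus strand) was at 37% and 63% of its Jurkat scrambled level (384 to 387 CPM) with shRNA-4057 and shRNA-4058, and at 65.5% and 71% of its HSB-2 scrambled level (220 to 227 CPM). No shRNA library overlapped with a control library of its line. The T-lineage markers matched the label: of 10 listed markers, 10 were at 1 CPM or above in Jurkat and in 3 of the HSB-2 groups, and 9 in HSB-2 scrambled cells, where CD2 was low (0.785 to 4.96 CPM over HSB-2). Of the markers of other lineages, sums were at most 0.423 CPM for 5 myeloid markers and 0.356 CPM for 4 packaging-cell or epithelial markers. Higher levels were those of CD79A in Jurkat (21.5 to 64.2 CPM), PAX5 in HSB-2 (0.642 to 3.57 CPM) and ITGA2B in both lines (0.979 to 3.73 CPM). Such bulk levels cannot tell fewer cells of a type apart from less RNA per cell.

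MAN1A1, the Golgi alpha-mannosidase IA gene, ran in opposite directions in the 2 lines. In Jurkat it was at 27.5 and 26 CPM in scrambled cells, at 12.4 and 11.1 CPM for shRNA-4057 and at 19.5 and 19.1 CPM for shRNA-4058. In HSB-2 it was at 0.118 and 0.114 CPM in scrambled cells (22 and 20 counts), at 17.3 and 16.5 CPM for shRNA-4057 and at 14.0 CPM in both libraries with shRNA-4058. Wild-type cells were at 25.7 and 28.3 CPM in Jurkat and at 2.64 and 2.63 CPM in HSB-2. Every shRNA library was thus below the scrambled and wild-type libraries in Jurkat and above them in HSB-2, and the HSB-2 scrambled libraries were the lowest of all 16.

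In Jurkat, MAN1A1 fell by 1.19 ± 0.068 on the log2 scale (SE) with shRNA-4057 against scrambled (adjusted p = 2.93e-14, edgeR quasi-likelihood test) and by 0.47 ± 0.066 with shRNA-4058 (adjusted p = 9.99e-07), and it was 1.65-fold lower with shRNA-4057 than with shRNA-4058 (adjusted p = 2.14e-09). Against Jurkat wild-type, the mean of both hairpins left 55.8% (adjusted p = 2.14e-12), and the scrambled cells were at 99.2% of wild-type (adjusted p = 0.956). With both hairpins as 1 group of 4 libraries, the difference between the hairpins counts as error. Libraries of the same hairpin are treated as independent in that fit, so its p-values may still be too small. The log2 change there was -0.76 ± 0.23 with an adjusted p of 0.0444. That call was lost without Jurkat scrambled replicate 1 (adjusted p = 0.19), scrambled replicate 2 (0.17), shRNA-4057 replicate 1 (0.071) or shRNA-4057 replicate 2 (0.058), with log2 changes from -0.80 to -0.63, and with no filter on low counts (0.15).

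In HSB-2, MAN1A1 was 145-fold higher with shRNA-4057 than in scrambled cells and 120-fold higher with shRNA-4058, log2 changes of 7.18 and 6.91. Against HSB-2 wild-type, the mean of both hairpins was 5.85-fold higher. HSB-2 scrambled cells were at 4.43% of the wild-type level, so the choice of control moved the change: with scrambled and wild-type cells as 1 control group the log2 change was 3.52 instead of 7.06. The sum of the 10 T-lineage markers also differed between the groups, though the order of the groups was not that of MAN1A1. LCK alone, 1 of the 10, was between 1310 and 1800 CPM over HSB-2. In HSB-2 the sum was 2940 to 3060 CPM in scrambled, 3450 CPM in both wild-type libraries, 3820 to 3920 CPM for shRNA-4057 and 4340 to 4470 CPM for shRNA-4058. In Jurkat it was 3300 to 3380 CPM in scrambled, 2950 to 3040 CPM in wild-type and 2370 to 2500 CPM with the hairpins. The part of these shifts in the MAN1A1 levels was not tested. The 5 B-lineage markers summed to 1.17 to 1.27 CPM in HSB-2 scrambled, 3.21 to 3.22 CPM in wild-type and 3.40 to 4.61 CPM with the hairpins. In Jurkat that sum, nearly all of it CD79A, was 61.6 to 64.8 CPM in scrambled, 35.9 to 36.4 CPM in wild-type and 22.0 to 23.0 CPM with the hairpins, and its part in the MAN1A1 levels was not tested either.

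Ordered by group mean, MAN1A1 was highest in Jurkat wild-type (27.0 ± 1.9 CPM, SD, n = 2) and Jurkat scrambled (26.8 ± 1.0 CPM), followed by Jurkat shRNA-4058 (19.3 ± 0.31 CPM), HSB-2 shRNA-4057 (16.9 ± 0.56 CPM), HSB-2 shRNA-4058 (14.0 CPM), Jurkat shRNA-4057 (11.7 ± 0.91 CPM), HSB-2 wild-type (2.63 CPM) and HSB-2 scrambled (0.116 ± 0.0028 CPM). Only the libraries of the Jurkat wild-type and scrambled groups overlapped among neighbors in that order. The untransduced lines themselves differed 10.2-fold (log2 change of HSB-2 against Jurkat -3.35 ± 0.078, adjusted p = 3.41e-24), and the knock-down libraries of both lines lay between these extremes, from 11.1 to 19.5 CPM. An antisense lncRNA, ENSG00000253194, overlaps MAN1A1 exons by 79 bases and had 319 counts over all libraries.

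**Figure D1:**
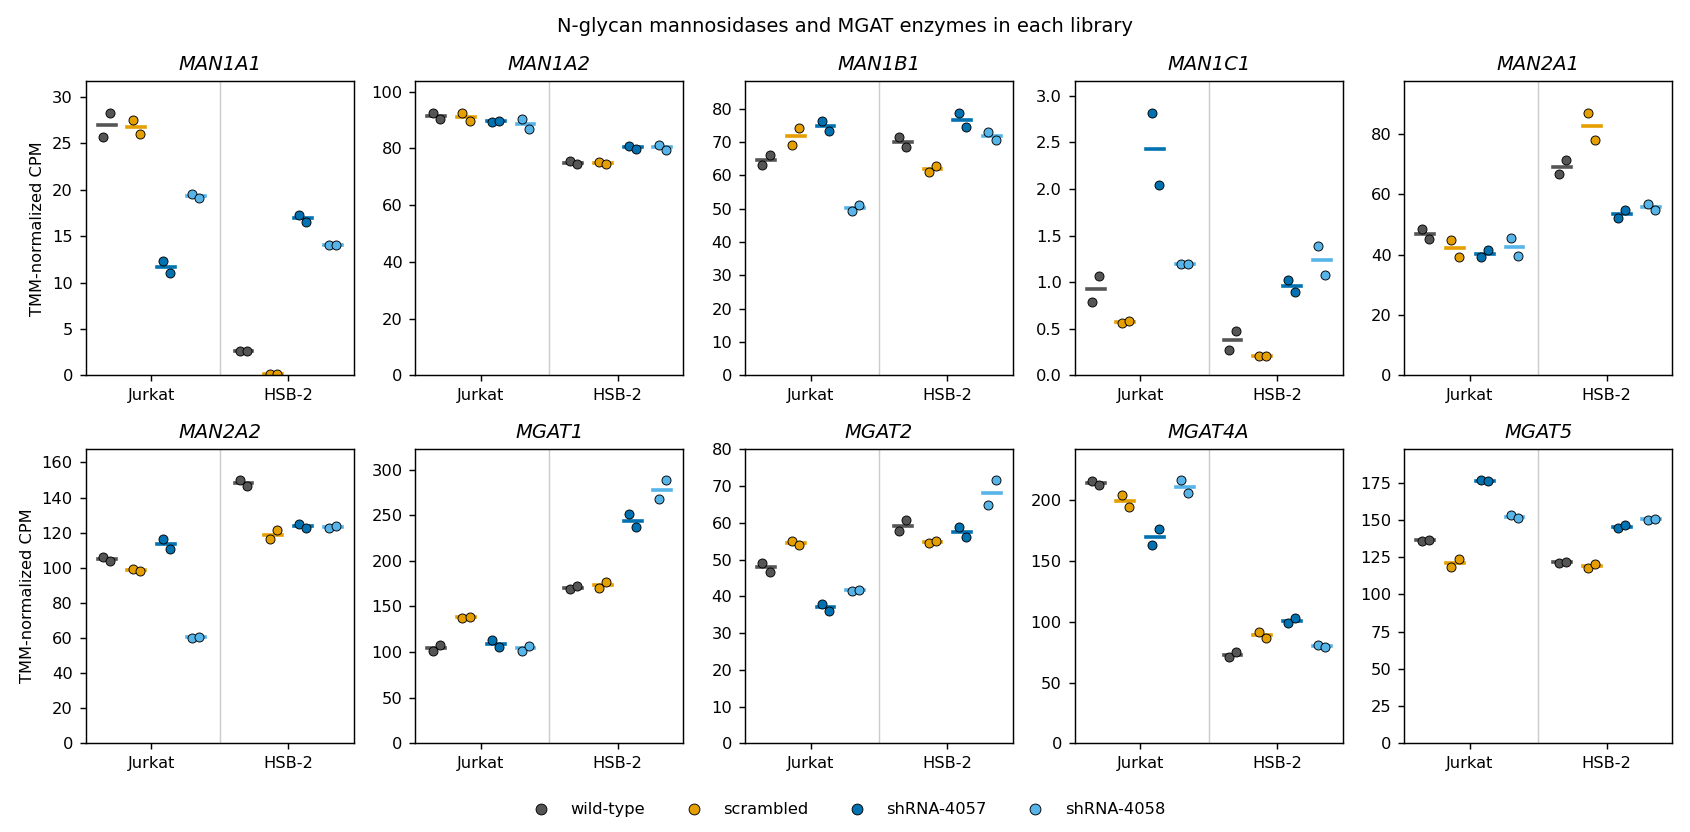
Levels of the 10 genes in each library. Each panel plots TMM-normalized CPM (y axis, linear, from 0) for Jurkat and HSB-2, each point is 1 library and each line the mean of a group of 2. MAN1A1 libraries with USP7 shRNA lie below the controls in Jurkat (11.1 to 19.5 CPM) and above them in HSB-2 (14.0 to 17.3 CPM), while MAN1A2 stays between 74.5 and 92.7 CPM throughout.

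MAN1A2, the Golgi alpha-mannosidase IB gene, varied least. It was between 89.7 and 92.7 CPM in the Jurkat controls and between 86.8 and 90.3 CPM in the Jurkat shRNA libraries. In HSB-2 it was between 74.5 and 75.4 CPM in the controls and between 79.6 and 81.2 CPM with the hairpins. None of the Jurkat comparisons called it (adjusted p from 0.391 to 0.935). Against HSB-2 wild-type it was higher by 0.10 ± 0.033 on the log2 scale (adjusted p = 0.0157), a call lost without HSB-2 wild-type replicate 2 (adjusted p = 0.13) or shRNA-4058 replicate 1 (0.054) and with no filter (0.067). HSB-2 wild-type cells had 82.0% of the Jurkat wild-type level (adjusted p = 1.74e-07).

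MAN1C1, the Golgi alpha-mannosidase IC gene, had the lowest level per kilobase of exons of the 10 in every group and was higher with both hairpins in both lines. In HSB-2 scrambled cells MAN1A1 was close to it (0.0231 against 0.0213 CPM per kb). Without division by length the order there was the reverse (0.116 CPM for MAN1A1, 0.207 CPM for MAN1C1). In Jurkat it was at 0.564 and 0.582 CPM in scrambled cells, 2.82 and 2.04 CPM for shRNA-4057 and 1.19 and 1.20 CPM for shRNA-4058. The HSB-2 levels were 0.203 and 0.211 CPM in scrambled cells, 1.03 and 0.898 CPM for shRNA-4057 and 1.39 and 1.08 CPM for shRNA-4058. Wild-type libraries were at 0.787 and 1.07 CPM in Jurkat and 0.276 and 0.473 CPM in HSB-2, below every shRNA library of their line. The Jurkat rise against scrambled was 4.24-fold with shRNA-4057 (log2 2.08 ± 0.25, adjusted p = 5.17e-08) and 2.08-fold with shRNA-4058 (log2 1.06 ± 0.26, adjusted p = 0.00116), and the hairpins differed from each other (adjusted p = 0.00052). Against wild-type cells, both hairpins together gave a 1.85-fold rise in Jurkat (adjusted p = 0.00122; 0.063 without Jurkat wild-type replicate 1) and a 3.12-fold rise in HSB-2 (adjusted p = 1.89e-06). Against scrambled in HSB-2 the folds were 4.62 and 6.06 for shRNA-4057 and shRNA-4058. Scrambled cells were at 62.4% and 59.0% of wild-type in Jurkat and HSB-2 (adjusted p = 0.0599 and 0.0514), and both passed the threshold without wild-type replicate 1 of the line (0.046 and 0.015).

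Added up per kilobase of exons, which allows levels of different genes to be compared, the 3 Golgi alpha-mannosidase I genes came to 14.8 ± 0.40 CPM per kb (SD, n = 2) in Jurkat scrambled, 11.8 ± 0.21 with shRNA-4057 and 13.1 ± 0.32 with shRNA-4058. In HSB-2 the sums were 7.79 ± 0.062, 11.8 ± 0.20 and 11.2 ± 0.14 CPM per kb in the same order, and the wild-type sums were 14.9 ± 0.22 in Jurkat and 8.32 ± 0.052 in HSB-2. The 2 lines thus stood closer to each other with the hairpins than without, which describes a sum that holds MAN1A1, the selected gene. In HSB-2, MAN1A1 went from 0.0231 CPM per kb in scrambled to 3.37 and 2.80 with shRNA-4057 and shRNA-4058. MAN1A2 went from 7.75 to 8.32 CPM per kb with either hairpin. MAN1A1 made up 36.0% ± 0.39 of the sum in Jurkat scrambled and 19.7% ± 1.2 with shRNA-4057, against 0.296% ± 0.0047 in HSB-2 scrambled and 28.6% ± 0.47 with shRNA-4057. MAN1A2 made up 63.6% of the sum in Jurkat scrambled and 99.4% in HSB-2 scrambled, and MAN1C1 never more than 2.11% in a group mean. With the longest transcript in place of all exons as the length, the MAN1A1 shares were 33.2% and 0.262% in the Jurkat and HSB-2 scrambled groups, and the MAN1C1 share with shRNA-4057 in Jurkat was 3.92% instead of 2.11%.

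**Figure D2:**
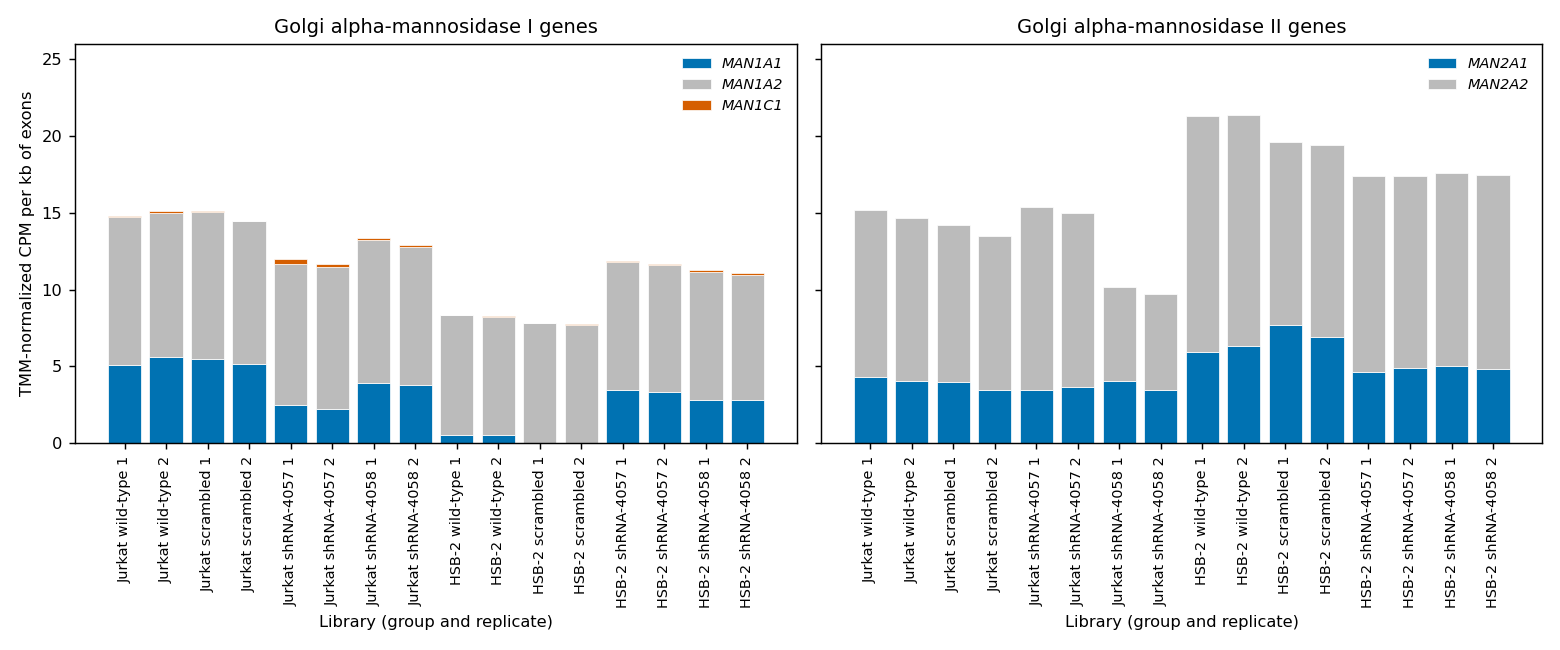
Golgi alpha-mannosidase genes added up in each library. Stacked bars give TMM-normalized CPM per kilobase of exons (y axis, from 0) for MAN1A1, MAN1A2 and MAN1C1 on the left and MAN2A1 and MAN2A2 on the right, 1 bar per library. MAN1A1 is nearly absent from the HSB-2 scrambled bars and forms 28.6% and 24.9% of the HSB-2 shRNA-4057 and shRNA-4058 sums.

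MAN1B1, which trims mannose and takes part in the disposal of misfolded glycoproteins, was lower in Jurkat with shRNA-4058. It was at 69.1 and 74.1 CPM in Jurkat scrambled and 76.3 and 73.3 CPM for shRNA-4057, which overlapped, and at 49.3 and 51.0 CPM for shRNA-4058. MAN1B1 fell by 0.51 ± 0.046 on the log2 scale with shRNA-4058 (adjusted p = 3.59e-10), and the change with shRNA-4057 was 0.06 ± 0.046 (adjusted p = 0.265). The hairpins differed 1.49-fold (adjusted p = 7.02e-11). In HSB-2 the level was 60.9 and 62.7 CPM in scrambled, 78.8 and 74.5 CPM for shRNA-4057 and 72.9 and 70.6 CPM for shRNA-4058, and at 71.5 and 68.6 CPM in wild-type cells. The hairpin libraries lay above the HSB-2 scrambled libraries by 1.24-fold and 1.16-fold in the group means and overlapped with wild-type (log2 0.08 ± 0.039, adjusted p = 0.104). The difference from wild-type passed the threshold with DESeq2 size factors (adjusted p = 0.018) and with DESeq2 (0.016). Its log2 change was 0.162 without wild-type replicate 1 and 0.133 without shRNA-4058 replicate 2. HSB-2 scrambled cells were below wild-type by 0.18 ± 0.045 (adjusted p = 0.00207; 0.083 without wild-type replicate 1), and Jurkat scrambled cells above wild-type by 0.15 ± 0.046 (adjusted p = 0.0144; 0.17 without wild-type replicate 1 and 0.31 without scrambled replicate 2).

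MGAT1, which adds the N-acetylglucosamine that all hybrid and complex N-glycans start from, was lower than scrambled in Jurkat and higher in HSB-2. It was at 137 and 138 CPM in Jurkat scrambled, 113 and 106 CPM for shRNA-4057 and 102 and 107 CPM for shRNA-4058. The HSB-2 levels were 171 and 177 CPM in scrambled, 251 and 237 CPM for shRNA-4057 and 268 and 288 CPM for shRNA-4058. No shRNA library overlapped with the scrambled libraries of its line. In Jurkat MGAT1 fell by 0.34 ± 0.044 with shRNA-4057 (adjusted p = 3.13e-07) and by 0.40 ± 0.044 with shRNA-4058 (adjusted p = 1.56e-08). Jurkat wild-type cells, at 101 and 108 CPM, overlapped with the hairpin cells however (1.02-fold, adjusted p = 0.519), and scrambled cells were 1.32-fold above wild-type (adjusted p = 6.19e-08). In HSB-2 the wild-type libraries were at 169 and 172 CPM and overlapped with scrambled (log2 0.02 ± 0.043, adjusted p = 0.724), and both hairpins together were 1.52-fold above wild-type (log2 0.61 ± 0.039, adjusted p = 5.2e-13). The HSB-2 level was 1.14-fold higher with shRNA-4058 than with shRNA-4057 (adjusted p = 0.00172; 0.062 without shRNA-4057 replicate 2). MGAT1 exons overlap a gene of the opposite strand, ENSG00000280161, by 395 bases.

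Of the Golgi alpha-mannosidases II, MAN2A1 was lower with the hairpins in HSB-2. It was at 87.1 and 77.9 CPM in HSB-2 scrambled and 66.7 and 71.4 CPM in wild-type cells, and at 52.1, 54.9, 56.7 and 54.8 CPM in the 4 shRNA libraries, which did not overlap with either control. Against HSB-2 wild-type the log2 change was -0.34 ± 0.061 (adjusted p = 0.000182), and against scrambled 64.8% and 67.6% of the level remained with shRNA-4057 and shRNA-4058. HSB-2 scrambled was above wild-type by 0.26 ± 0.070 (adjusted p = 0.00738), a call lost without wild-type replicate 1 (0.083) or scrambled replicate 1 (0.11). In Jurkat the scrambled libraries were at 44.9 and 39.3 CPM and the shRNA libraries between 39.1 and 45.6 CPM. These overlapped (adjusted p = 0.513 and 0.893 for shRNA-4057 and shRNA-4058), and a difference from wild-type of -0.18 ± 0.063 (adjusted p = 0.0324) was lost without Jurkat wild-type replicate 1 (0.30), shRNA-4057 replicate 1 (0.11) or shRNA-4058 replicate 2 (0.089), with the libraries still overlapping.

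MAN2A2, the second of these enzymes, split the hairpins in Jurkat. It was at 99.4 and 98.1 CPM in Jurkat scrambled, 116 and 111 CPM for shRNA-4057 and 59.9 and 60.7 CPM for shRNA-4058. It rose by 0.20 ± 0.038 with shRNA-4057 (adjusted p = 6.4e-05) and fell by 0.71 ± 0.039 with shRNA-4058 (adjusted p = 1.31e-14), and the 1.88-fold difference between the hairpins had an adjusted p of 2.35e-16. In HSB-2 the scrambled libraries were at 116 and 122 CPM and the 4 shRNA libraries between 122 and 125 CPM. The HSB-2 wild-type libraries stood apart at 150 and 147 CPM. Against them, scrambled cells were lower by 0.32 ± 0.037 (adjusted p = 9.17e-08) and hairpin cells by 0.27 ± 0.032 (adjusted p = 1.12e-07). Per kilobase, MAN2A2 supplied 73.0% ± 1.7 of the alpha-mannosidase II sum in Jurkat scrambled, 76.4% ± 1.4 with shRNA-4057 and 62.1% ± 2.7 with shRNA-4058, and the Jurkat sum was 13.9 ± 0.45, 15.2 ± 0.27 and 9.95 ± 0.33 CPM per kb in that order. The HSB-2 sum was 19.5 ± 0.18 CPM per kb in scrambled cells, 17.4 with shRNA-4057 and 17.6 with shRNA-4058. An antisense lncRNA, ENSG00000259661, overlaps MAN2A2 exons by 795 bases and had 356 counts over all libraries.

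MGAT2, which adds the N-acetylglucosamine of the other arm, followed MGAT1 in direction against scrambled. It was at 55.2 and 54.1 CPM in Jurkat scrambled, 38.0 and 36.1 CPM for shRNA-4057 and 41.5 and 41.7 CPM for shRNA-4058. MGAT2 fell by 0.56 ± 0.050 (adjusted p = 2.52e-10) and 0.39 ± 0.049 (adjusted p = 1.72e-07), and it was also below wild-type, at 49.0 and 46.8 CPM, by 0.29 ± 0.043 (adjusted p = 4.15e-06). The level was lower with shRNA-4057 than with shRNA-4058 (log2 -0.17 ± 0.050, adjusted p = 0.01; 0.12 without shRNA-4057 replicate 2), and scrambled was above wild-type by 0.19 ± 0.049 (adjusted p = 0.0046; 0.066 without wild-type replicate 2). In HSB-2 it was at 54.5 and 55.1 CPM in scrambled, 58.8 and 56.2 CPM for shRNA-4057 and 64.9 and 71.6 CPM for shRNA-4058. The HSB-2 wild-type libraries, at 57.7 and 60.8 CPM, overlapped with the hairpin libraries (log2 0.08 ± 0.042, adjusted p = 0.137). With DESeq2 size factors and with DESeq2 this difference passed the threshold (log2 0.116 and adjusted p = 0.028 in both). The log2 change was 0.113 without shRNA-4058 replicate 1. An antisense lncRNA, ENSG00000258377, overlaps 2469 bases of MGAT2 exons. Since the strand setting of the counting is not given, the reads of both cannot be told apart with certainty; the lncRNA had 892 counts over all 16 libraries.

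MGAT4A and MGAT5 add the branches that distinguish tri- and tetra-antennary glycans. MGAT4A was higher in every Jurkat library than in any HSB-2 library. It was between 163 and 216 CPM in Jurkat and between 70.8 and 103 CPM in HSB-2, and HSB-2 wild-type cells had 34.0% of the Jurkat wild-type level (log2 -1.56 ± 0.044, adjusted p = 3.78e-22). With shRNA-4057 it was at 163 and 176 CPM against 204 and 194 CPM in Jurkat scrambled (log2 -0.23 ± 0.043, adjusted p = 4.76e-05). With shRNA-4058 it was at 216 and 206 CPM (log2 0.08 ± 0.043, adjusted p = 0.113; 0.029 with libraries of the line only), and it was lower with shRNA-4057 than with shRNA-4058 (log2 -0.32 ± 0.043, adjusted p = 1e-06). In HSB-2 the level was at 91.7 and 86.8 CPM in scrambled, 98.7 and 103 CPM for shRNA-4057, 80.7 and 79.0 CPM for shRNA-4058 and 70.8 and 74.7 CPM in wild-type cells. The order of the hairpins was the reverse of that in Jurkat, with shRNA-4057 above shRNA-4058 (log2 0.34 ± 0.044, adjusted p = 1.43e-06), and both hairpins together were 1.24-fold above wild-type (adjusted p = 2.34e-07), as were scrambled cells at 1.23-fold (adjusted p = 4.13e-06).

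MGAT5 was higher with both hairpins in both lines and against both controls. In Jurkat it was at 119 and 123 CPM in scrambled, 136 CPM in both wild-type libraries, 176 CPM in both shRNA-4057 libraries and 153 and 151 CPM for shRNA-4058. In HSB-2 MGAT5 was at 117 and 120 CPM in scrambled, 121 and 122 CPM in wild-type, 144 and 146 CPM for shRNA-4057 and 150 and 151 CPM for shRNA-4058. No shRNA library overlapped with a control library of its line. In Jurkat MGAT5 rose 1.46-fold with shRNA-4057 (log2 0.54 ± 0.035, adjusted p = 2.92e-13) and 1.26-fold with shRNA-4058 (log2 0.33 ± 0.035, adjusted p = 7.39e-09), and 1.20-fold against wild-type (adjusted p = 5.18e-08). In HSB-2 it rose 1.22-fold against wild-type (log2 0.28 ± 0.030, adjusted p = 1.46e-08), and it was 1.22-fold and 1.26-fold above scrambled with shRNA-4057 and shRNA-4058. Jurkat scrambled cells were below wild-type by 0.17 ± 0.035 (adjusted p = 0.000453).

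Counted over the 10 genes, all of which passed the filter on low counts, shRNA-4057 against scrambled in Jurkat called 3 higher and 4 lower, where 22.7% of all 23063 genes tested were called higher and 27.3% lower. shRNA-4058 called 2 higher and 5 lower, against 19.7% and 26.8% of all genes. Against Jurkat wild-type, 2 were called higher and 5 lower (14.4% and 22.7% of all genes), and Jurkat scrambled against wild-type called 3 higher and 1 lower (14.9% and 11.1%). The hairpins against each other in Jurkat called 4 of the genes higher and 3 lower with shRNA-4057 (17.7% and 16.2%). With both hairpins as 1 group in Jurkat, 2 genes (MAN1C1 and MGAT5) were called higher and 3 (MAN1A1, MGAT1 and MGAT2) lower, where 12.2% and 15.6% of 21288 genes were called. That count rested on the scrambled libraries: without scrambled replicate 1 or 2, none of the 10 genes passed the threshold (adjusted p of the 5 genes from 0.062 to 0.19), while the calls over all genes dropped from 5938 to 1855 and 1397.

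In HSB-2 the comparison with scrambled chose the list through MAN1A1. Its counts all include MAN1A1 and are given for completeness only. They are not a result about the list, and the shares of all genes beside them are no test of it. Against scrambled, shRNA-4057 gave 7 higher and 1 lower (21.9% and 21.6% of all genes), shRNA-4058 gave 7 higher and 2 lower (26.6% and 26.2%), and both as 1 group gave 5 higher and 1 lower (20.3% and 17.8% of 21113 genes). The pooled calls over all genes dropped from 8030 to 3860 and 4587 without scrambled replicate 1 and 2. Against HSB-2 wild-type, 6 were called higher and 2 lower (20.8% and 20.4%), MAN1A1 among the former. HSB-2 scrambled against wild-type called 2 higher and 3 lower (16.1% and 18%), and shRNA-4057 against shRNA-4058 called 2 higher and 2 lower (10.5% and 14.4%), both counts including MAN1A1. All 10 genes differed between the wild-type cells of the lines, 5 higher in HSB-2 (MAN1B1, MAN2A1, MAN2A2, MGAT1 and MGAT2) and 5 lower, where 33.4% and 34.6% of all genes did. The call of MAN1B1 there (log2 0.12 ± 0.046, adjusted p = 0.0211) was lost without wild-type replicate 1 of Jurkat (0.18) or of HSB-2 (0.37) and with DESeq2 size factors (0.057). The median log2 change of the 10 genes was -0.04 and -0.22 for shRNA-4057 and shRNA-4058 in Jurkat and 0.23 and 0.27 in HSB-2, beside medians of all genes between -0.016 and 0.

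**Figure D3:**
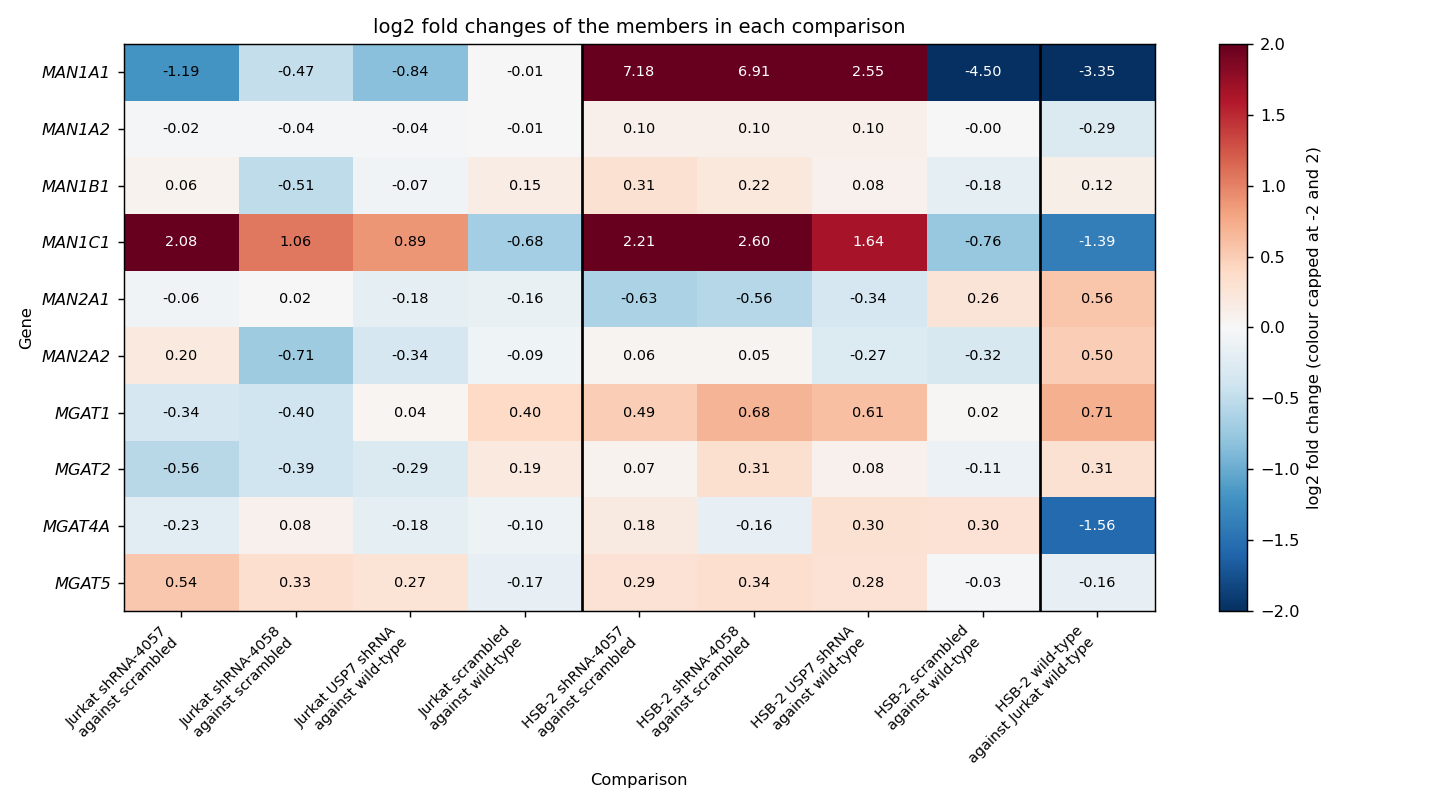
log2 fold changes of the 10 genes in each comparison of the fit of all 16 libraries. Rows are genes, columns are comparisons, the number in a cell is the log2 fold change and the color scale is capped at -2 and 2. The MAN1A1 row runs from -1.19 to 7.18 across the hairpin comparisons with scrambled, and the MAN1C1 and MGAT5 rows are positive in all 4 of them.

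Of 71 other N-glycan pathway genes, listed in 7 steps, 67 were tested in the pooled fits. Their calls are against scrambled cells and not against wild-type. In Jurkat, 4 were called higher and 21 lower with both hairpins (median log2 change -0.16), beside 12.2% and 15.6% of all genes. In HSB-2, 10 were called higher and 24 lower (median -0.06), beside 20.3% and 17.8% of all genes. The list of ER glucose trimming and quality control also holds mannosidase-like genes. Of its 13 genes tested in Jurkat, 7 fell and 1 rose, beside 15.6% and 12.2% of all genes. Calreticulin (CALR), a chaperone that binds monoglucosylated glycans, fell by 0.75 ± 0.073 (adjusted p = 0.0006), and EDEM1 and EDEM2, which mark misfolded glycoproteins for degradation, fell by 0.60 ± 0.065 (adjusted p = 0.00088) and 0.56 ± 0.065 (adjusted p = 0.0011). Of the 12 oligosaccharyltransferase genes, which encode the complex that transfers the glycan to protein, 4 fell and 1 rose. Among those that fell were OST4 at -0.72 ± 0.061, TMEM258 at -0.70 ± 0.068 and DDOST at -0.41 ± 0.058. DDOST was at 167 CPM in Jurkat scrambled, 135 CPM in wild-type and 121 and 126 CPM with the hairpins. The precursor assembly genes moved both ways in Jurkat, with 2 of 18 called higher and 3 lower. ALG11 rose by 0.72 ± 0.13 and ALG6 by 0.59 ± 0.15, and DPM3 fell by 0.84 ± 0.11. DPM3 was at 21.0 CPM in Jurkat scrambled, 14.4 CPM in wild-type and 10.9 and 12.2 CPM with the hairpins.

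In HSB-2, 11 of the 18 precursor assembly genes were called lower and 1 higher (median -0.35), beside 17.8% and 20.3% of all genes. DPM1, the catalytic subunit of dolichol-phosphate-mannose synthase, fell by 0.47 ± 0.065, and the glycosyltransferase genes ALG1 and ALG5 fell by 0.46 ± 0.090 and 0.42 ± 0.094. Other HSB-2 changes were split, with KRTCAP2 at -0.96 ± 0.19, TUSC3 at -0.47 ± 0.057 and OSTC at -0.39 ± 0.059 among 4 oligosaccharyltransferase genes called lower and 2 higher. TUSC3 was at 56.8 ± 1.1 CPM in HSB-2 scrambled and at 39.8 ± 1.9 and 41.9 ± 0.78 CPM with the hairpins, but at 39.3 ± 0.66 CPM in wild-type cells. KRTCAP2 was at 4.46 CPM in HSB-2 scrambled, 2.67 CPM in wild-type and 1.87 and 2.69 CPM with the hairpins. In the trimming and quality control list, which also holds mannosidase-like genes, 4 were called lower and 3 higher, beside 17.8% and 20.3% of all genes. MANEA (-0.55 ± 0.091), UGGT1 (-0.49 ± 0.076) and CALR (-0.48 ± 0.058) were among the lower ones. MANEA was at 18.7 ± 2.6 CPM in HSB-2 scrambled, 14.4 CPM in wild-type and 12.2 and 13.3 CPM with the hairpins. EDEM1 rose by 0.26 ± 0.051 there, from 224 ± 3.1 CPM in scrambled to 274 ± 2.0 and 259 ± 2.1 CPM, with wild-type cells at 254 ± 6.8 CPM. MGAT3, which adds the bisecting N-acetylglucosamine, was at 18.5 ± 0.79 CPM in HSB-2 scrambled and 10.7 ± 0.51 and 10.1 ± 0.47 CPM with the hairpins (log2 -0.82 ± 0.078), but at 8.94 ± 0.14 CPM in wild-type cells. It was the 1 gene called of 3 tested in the branching list, and none was called in Jurkat.

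Among the terminal steps, ST3GAL6, a sialyltransferase, was the 1 gene of the 71 called in the same direction by at least 1.5-fold in all 4 comparisons of a hairpin with scrambled. It fell by 1.02 and 0.62 in Jurkat and by 1.31 and 1.17 in HSB-2 for shRNA-4057 and shRNA-4058, from 7.79 ± 0.41 CPM in Jurkat scrambled and 0.840 ± 0.19 CPM in HSB-2 scrambled. Its wild-type level was 5.66 ± 0.18 CPM in Jurkat and 0.479 ± 0.17 CPM in HSB-2, below scrambled in both. In Jurkat 5 of the 11 fucosylation, galactosylation, elongation and sialylation genes fell and none rose, beside 15.6% and 12.2% of all genes. Among them were ST3GAL3 at -0.63 ± 0.070 and the polylactosamine enzyme gene B3GNT2 at -0.55 ± 0.097. B3GNT2 was at 49.2 CPM in Jurkat scrambled, 37.9 CPM in wild-type and 30.2 and 35.7 CPM with the hairpins. In HSB-2 2 rose and 2 fell, with the core fucosyltransferase gene FUT8 at 0.37 ± 0.048 and B4GALT4 at -0.32 ± 0.091. Of 6 nucleotide-sugar transporter genes none was called in Jurkat, beside the same shares of all genes. In HSB-2 SLC35A3 (-0.61 ± 0.084) and SLC35B4 (-0.42 ± 0.067) fell and none rose, again beside 17.8% and 20.3% of all genes. Of the lysosomal mannosidase genes, MAN2B1 fell by 0.34 ± 0.081 in Jurkat and rose by 0.52 ± 0.061 in HSB-2. MANBA fell by 0.50 ± 0.095 in Jurkat and was not called in HSB-2 (log2 0.017 ± 0.10, adjusted p = 0.91). MAN2B2 rose by 0.22 ± 0.055 in HSB-2 and was not called in Jurkat (log2 -0.22 ± 0.080, adjusted p = 0.077). Differences between the lines were not tested.

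**Figure D4:**
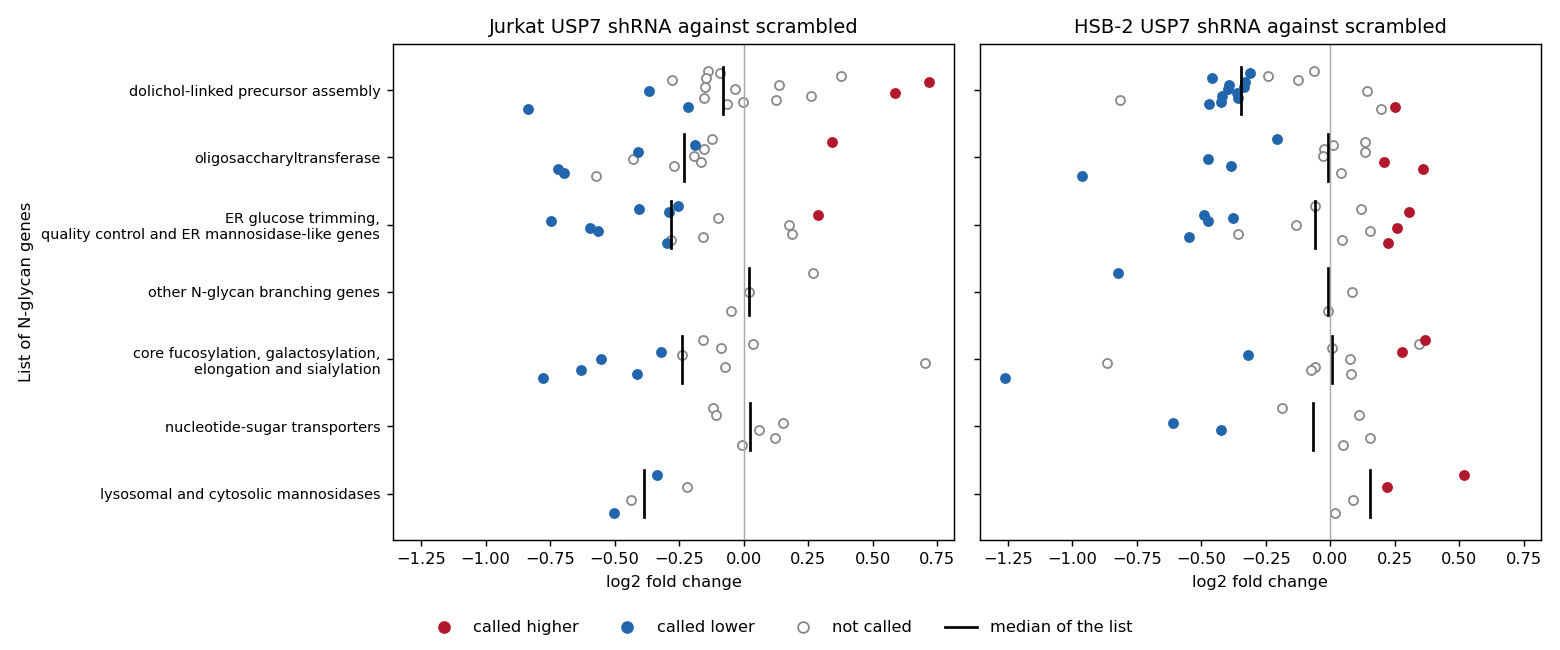
log2 fold changes of 67 other N-glycan genes in the pooled comparison with scrambled, Jurkat on the left and HSB-2 on the right. Each point is a gene, rows are the 7 lists, filled points passed an adjusted p of 0.05 and a vertical bar is the median of a list. Most filled points in Jurkat lie below 0 (21 of 25), and in HSB-2 the 11 lower precursor assembly genes lie between -0.47 (DPM1) and -0.31 (ALG13).

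The genes whose levels most resembled MAN1A1 over the 16 libraries, by Pearson's r of log2(CPM + 0.1), were STOM (0.989), FES (0.984), OLFM2 (0.977), PAQR7 (0.977) and DENND5A (0.976). These values describe the libraries, which share lines, controls and groups. STOM, which encodes the membrane protein stomatin, was at 17.3, 11.9 and 14.5 CPM in Jurkat scrambled, shRNA-4057 and shRNA-4058 and at 1.64, 11 and 14 CPM in the same HSB-2 groups. FES, a tyrosine kinase gene, was at 9.29, 6.33 and 7.38 CPM and at 1.38, 6.15 and 7.30 CPM in that order. Both had their lowest group mean in HSB-2 scrambled cells, as MAN1A1 did, which the choice of genes by r favors. Among the 9 other N-glycan enzymes the r with MAN1A1 ran from -0.856 for MAN2A1 to 0.763 for MAN1A2 and 0.708 for MAN1C1, with MGAT4A at 0.59, MGAT5 at 0.476, MAN1B1 at 0.128, MGAT2 at -0.202, MGAT1 at -0.215 and MAN2A2 at -0.375.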

How the data were processed

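RNA was sequenced in 16 libraries of 2 cell lines. Per the labels, total RNA was depleted of ribosomal RNA, prepared with a stranded kit and run on a NovaSeq. Mapping by the authors was done in an in-house, BWA-based pipeline against GRCh37 and transcript collections. The submitters' processing notes also name CASAVA, STAR, hg19 and HTSeq 0.6.1p1, and what the authors deposited were unnormalized HT-seq counts per gene, with gene identifiers only. Strand setting and annotation release are not given in the sources used here. Symbols were matched for 55538 of 57820 genes, including all 10 enzymes. Coordinates and exon lengths came from GENCODE v44 lifted to GRCh37, another release of the gene models.

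Group comparisons used edgeR 4.0.16 in R 4.3.3 (filterByExpr, TMM with factors from 0.882 to 1.15, robust quasi-likelihood F-test, Benjamini-Hochberg adjustment over all genes tested). A gene was called at an adjusted p under 0.05. SE is the absolute log2 change divided by the square root of F. Both hairpins against scrambled were fitted per line on 6 libraries, with libraries of the same hairpin treated as independent. The other comparisons came from all 16 libraries as 8 groups (23063 genes). The biological coefficient of variation was 4.2% in that fit and 14.3% and 10.7% in the pooled Jurkat and HSB-2 fits. Replicates differed by more than sampling noise (chi-square per degree of freedom from 5.12 to 18.4). Floors allow for counting error alone, as the reads carry no molecular identifiers.

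The 10 enzymes and the gene lists were chosen with earlier results of these data known. All 10 enzymes are named; of the lists, the 3 called genes with the largest change per list and pooled comparison, genes called the same way by at least 1.5-fold with each hairpin in both lines, and the 5 genes most like MAN1A1. ALG13, outside this rule, was named after its value was seen. On simulated counts with 200 genes changed by a log2 of 1, 176 were recovered in the pooled Jurkat comparison (20723 genes tested, 23 unchanged genes called), 189 in the pooled HSB-2 comparison (20638 tested, 18 called) and 197 for Jurkat shRNA-4057 (22120 tested, 15 called). Alternatives were DESeq2 1.42.0, its size factors, no filter, a replicate block, libraries of the line only, separate hairpins, both controls together, another gene length and each library left out. One list of lineage markers is not reported here.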

Additional observations from a re-analysis of the deposited data

Results flagged for a closer look

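For 4 of the enzymes, every one of the 4 shRNA libraries in HSB-2 lay on one side of the mean of the controls and every one of the 4 in Jurkat on the other. The difference was not tested. The share of all genes that split in this way was not counted, so the number cannot be read as a trait of these enzymes. Against scrambled, MAN1A1 ranged from -1.27 to -0.454 (log2) in the Jurkat shRNA libraries and from 6.92 to 7.23 in HSB-2, a difference of 7.89 between the means of the lines. MGAT1 ranged from -0.441 to -0.287 in Jurkat and from 0.446 to 0.73 in HSB-2, a difference of 0.954. MGAT2 ranged from -0.595 to -0.388 and from 0.0362 to 0.385, a difference of 0.667. MAN1A2 ranged from -0.0686 to -0.0113 and from 0.0878 to 0.116, a difference of 0.134.

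Against wild-type cells in place of scrambled, MAN1A1 again differed in sign (from -1.28 to -0.465 in Jurkat and from 2.41 to 2.72 in HSB-2, a difference of 3.39), as did MAN1A2 (a difference of 0.14), also untested. MGAT1 and MGAT2 did not split this way against wild-type. The HSB-2 scrambled comparison had a part in choosing MAN1A1. Groups of 2 libraries are too small for a check on single outlying libraries.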

How the results depend on the processing

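Of 1260 values of the enzymes under an alternative, 35 lost and 19 gained a call, and 31 changed sign. Values of HSB-2 against scrambled, and of MAN1A1 in every comparison with HSB-2 libraries, were judged by size alone. Their lost or gained calls are therefore not in these numbers, and their sign changes only where the main fit called them. Of these values, 37 moved by more than the SE of the main log2 change. The remaining 1138 kept direction and side of the threshold, or moved by no more than that SE. Depth limits mainly MAN1A1 in HSB-2 scrambled cells (22 and 20 counts), whose fold changes carry that counting error. Pooled calls over all genes were 11850 (Jurkat) and 12066 (HSB-2) with the hairpins as separate groups, which removes the hairpin difference from the error, against 5938 and 8030. Leaving out 1 library each gave 1397 to 5776 and 3860 to 8455, and 3796 to 4521 for shRNA-4057 against shRNA-4058 in HSB-2 (5739 with all). In the pooled Jurkat comparison 7 enzymes were called with the hairpins as separate groups, against 5 in the main fit. That count rested on the scrambled libraries, as given above. The other counts of called enzymes or genes stayed within 1.5 times.

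Groups share 2 replicate numbers, which no label ties to a batch. The replicate differences correlated at 0.26 to 0.295 among Jurkat wild-type, scrambled and shRNA-4058, at -0.308 to -0.185 between these and shRNA-4057, and at -0.244 to 0.16 in HSB-2, so the numbers were not taken as pairs. With the replicate block, 4 enzymes instead of 5 were called in the pooled Jurkat comparison (MAN1A1 at an adjusted p of 0.077), and no other count of called enzymes changed.

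Sign changes concerned values near 0, none of them called. MAN1A2 was 0.014 with no filter and 0.000222 with both controls in the pooled Jurkat comparison (-0.0283 to 0.00795 leaving out libraries), 0.00094 with libraries of the line only for HSB-2 scrambled against wild-type (-0.0109 to 0.0142) and 0.000511 with the replicate block between HSB-2 hairpins (-0.0658 to 0.0156). MAN2A1 was -0.024 with separate hairpins and -0.067 with both controls in the pooled Jurkat comparison (-0.0912 to 0.0928). MAN2A2 was -0.0165 with DESeq2 size factors and -0.0164 with DESeq2 between HSB-2 hairpins (-0.0377 to 0.0202). Leaving out libraries also gave -0.133 to 0.034 (MAN2A1, Jurkat shRNA-4057), -0.0968 to 0.115 (MAN2A1, Jurkat shRNA-4058), -0.18 to 0.0321 (MAN2A1, Jurkat hairpins), -0.0144 to 0.0455 (MAN1A2, Jurkat hairpins), -0.0301 to 0.0118 (MAN1A2) and -0.081 to 0.0587 (MAN1A1) in Jurkat scrambled against wild-type, -0.000832 to 0.0497 (MGAT1, HSB-2 scrambled against wild-type), -0.0138 to 0.0776 (MGAT1, Jurkat shRNA against wild-type) and -0.11 to 0.0383 (MGAT4A, pooled Jurkat). The cause was not tested.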
